A study of Homo sapiens with 12 samples.

Results

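The 2 by 2 interaction of ochratoxin A and Bacillus subtilis CW14 asks which genes of Caco-2 cells answered the toxin differently with the bacteria than without them. It was taken over all 12 libraries of the series, 3 in each of 4 groups. Caco-2 is a human colon adenocarcinoma line whose monolayers take on features of enterocytes. They spent 21 days on permeable inserts before exposure in buffer, according to the labels' protocols. The combined group received ochratoxin A (OTA) at 15 µmol/L together with CW14 in the apical chamber. The CW14 group received the bacteria alone, the OTA group the toxin alone, and the control group neither. All groups shared the cell line, the growth on inserts and the buffer. The time of exposure is not given in the sources used here. Whether replicates came from separate cultures is not stated, so p-values measure only the spread between these libraries, which may be technical.

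For each gene the toxin response with bacteria (combined minus CW14) and the toxin response without bacteria (OTA minus control) were taken on the log2(FPKM + 1) scale. The interaction is the first minus the second. A positive interaction means that the toxin response was more positive with the bacteria, and a negative one that it was more negative. For genes well above 1 FPKM, an interaction of 0 means that the toxin multiplied expression by about the same factor with and without bacteria. FPKM are fragments scaled to transcript length and to the mapped fragments of the library. Differences on this scale understate the change of low genes.

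Ochratoxin A is a food toxin made by Aspergillus and Penicillium moulds. It resembles phenylalanine and is known to interfere with phenylalanyl-tRNA synthetase and with protein synthesis. Bacterial products reach epithelial cells through receptors such as the Toll-like receptors, which release NF-kB to switch on cytokine genes within hours. Those transcripts are short-lived, as are the products of immediate early genes.

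The libraries carried the markers of the line. Of 14 epithelial markers, 12 reached 1 FPKM in some library, among them VIL1, CDX2, KRT8 and HNF4A, while CDX1 stayed at or below 0.185 FPKM and SI, the sucrase-isomaltase gene of mature enterocytes, at or below 0.148 FPKM. The epithelial markers summed to 10840 to 27580 FPKM in combined libraries, 8688 to 9295 in CW14, 10570 to 11620 in OTA and 10140 to 10870 in control libraries. APOA1, an apolipoprotein gene, reached 19190 FPKM in combined replicate 3. Stromal markers summed to at most 7.82 FPKM in the combined group, 7.85 in CW14, 6.68 in OTA and 8.27 in control libraries. Immune markers, mostly LYZ and CD14, summed to 56.0 to 73.0 FPKM in combined libraries, 36.6 to 43.2 in CW14, 63.8 to 76.3 in OTA and 46.9 to 58.4 in control libraries. The leukocyte marker PTPRC was listed at 0 in all 12 libraries; the part of these marker levels in the results was not tested. Combined replicate 3 stood apart from the rest. Its residual SD was 0.588 on the log2 scale, against 0.305 to 0.424 in the other 11 libraries, its relative depth was the lowest at 0.470 of control replicate 1, and across genes its departure from the average library rose with GC content of the transcript (Spearman rho 0.493). That rho was 0.243 and 0.0844 in combined replicates 1 and 2, and -0.308 to -0.0358 in the 9 libraries of the other groups. The part of GC content in the results was not tested; values after a GC and length correction are given for some lists and genes.

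Of 12928 genes tested, 431 (3.33%) were called in the interaction at an adjusted p under 0.05 (limma, Benjamini-Hochberg over all genes tested). The interaction was higher in 239 genes (1.85%) and lower in 192 (1.49%). Inflammatory cytokine genes led the lower side, with genes of the hypoxia list and the cell-surface mucins MUC13 and MUC17. Wnt pathway genes, ribosome biogenesis factors and DNA replication genes stood on the higher side. The median standard error of an interaction was 0.30, and 3198 genes had an unadjusted p under 0.05. In bulk RNA, fewer cells expressing a gene and less RNA per cell cannot be told apart.

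**Figure D1:**
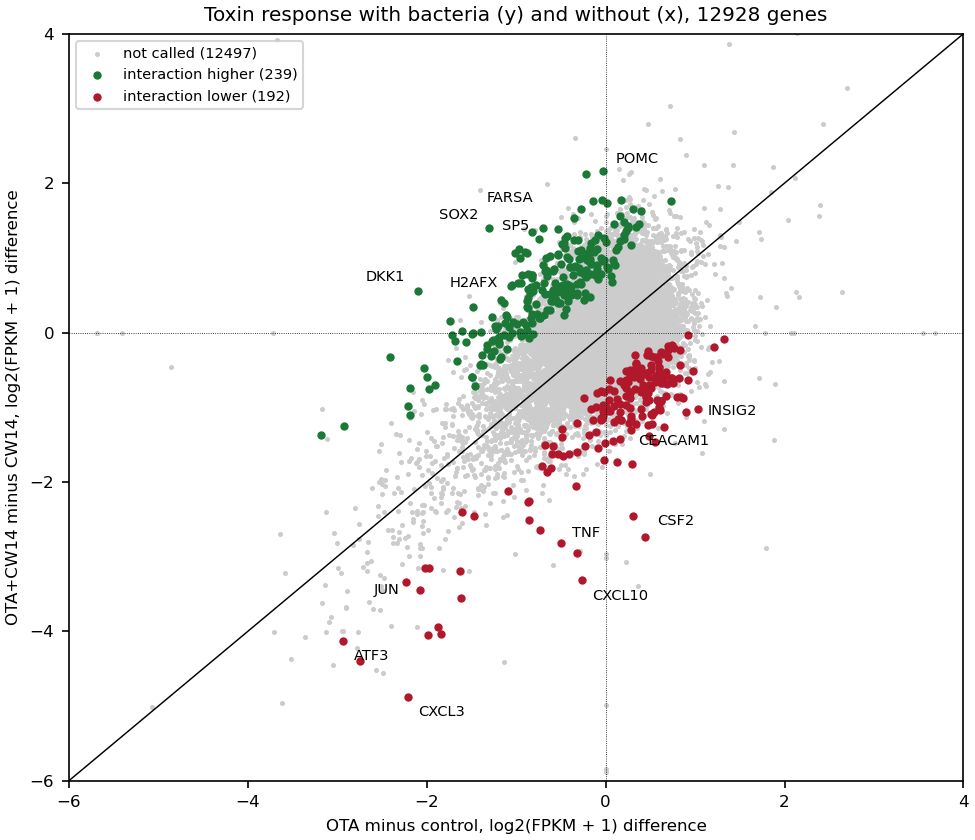
Toxin response with bacteria (combined minus CW14, vertical axis) against the toxin response without bacteria (OTA minus control, horizontal axis), both as log2(FPKM + 1) differences, with 1 point per tested gene and the line of equal responses. Green points are the 239 genes with a higher interaction, above the line, and red points the 192 with a lower one, below it; 25 genes, none of them called, lie outside the axes.

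The called genes fell into a few patterns by their toxin responses. The toxin response was called in 4179 genes with bacteria (32.3%), of which 1919 rose (14.8%) and 2260 fell (17.5%). Without bacteria it was called in 2288 genes (17.7%), of which 623 rose (4.82%) and 1665 fell (12.9%). Of the 239 genes with a higher interaction, 120 rose with the toxin in the presence of bacteria and were not called in their absence. A further 73 fell with the toxin alone and were not called with bacteria. In 31 the toxin response was opposite, a rise with bacteria and a fall without. In 14 the gene fell in both settings, by less with bacteria, and in 1 it rose in both. Of the 192 genes with a lower interaction, 112 fell with the toxin in the presence of bacteria and were not called in their absence, 28 fell in both settings, 30 fell with bacteria and rose without, and 22 rose with the toxin alone and were not called with bacteria. These responses share their libraries with the interaction, so the counts describe the called genes and add no support.

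Most called genes differed little between CW14 and control libraries, but a smaller share than among all genes. The difference was under 0.5 on the log2 scale in 195 of the 239 higher genes (81.6%) and 161 of the 192 lower genes (83.9%). Among all genes tested it was 93.6%. CW14 minus control was negative in 231 of the higher genes and 35 of the lower ones, against 6878 of all 12928. This difference enters the interaction with a minus sign, so the selection of called genes partly fixes these counts. In 17 of the lower genes CW14 libraries exceeded controls by 1 or more. All 431 called genes had the same sign of interaction when it was computed from mean FPKM without logs.

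The number of calls depended on single libraries, and 16 of the 431 genes kept their call in all 12 fits that left out 1 library. All 431 kept their sign in these fits, which their selection on the same libraries largely fixes. Without combined replicates 1, 2 and 3 the count was 184, 1521 and 1595. Without CW14 replicates 1, 2 and 3 it was 93, 154 and 247. Leaving out OTA replicates 1, 2 and 3 gave 81, 34 and 66 calls, and leaving out control replicates 1, 2 and 3 gave 250, 19 and 17. All 431 genes were also called, with the same sign, without combined replicate 3. That library had the largest residual SD and the count rose to 1595 without it, so this overlap adds no support. Higher calls made up 55.5% as deposited, 39.5% after median-centring (171 higher, 262 lower) and 39.6% after a correction for transcript GC content and length (270 higher, 412 lower). The share was 52.6% with upper-quartile scaling (200 higher, 180 lower) and 55.4% after quantile normalization (348 higher, 280 lower).

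**Figure D2:**
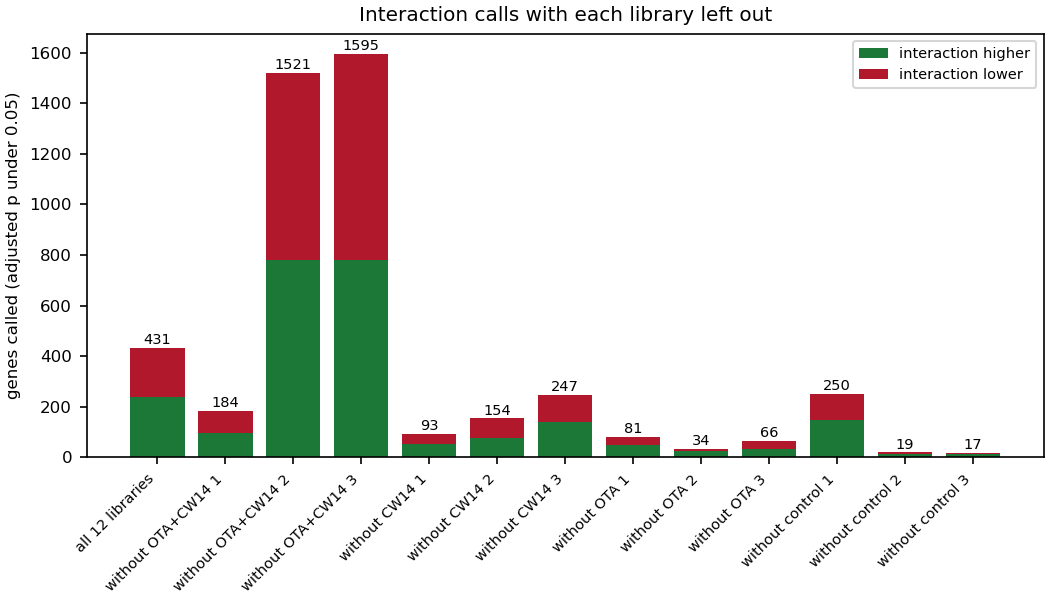
Genes called in the interaction (vertical axis, adjusted p under 0.05) with all 12 libraries and with each library left out, split into higher (green) and lower (red) interactions. The count ran from 17 without control replicate 3 to 1595 without combined replicate 3.

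Called genes differed in base composition. Transcripts of higher genes had a median GC content of 56.9%, those of lower genes 42.7% and those of all genes tested 48.8%. The interaction followed transcript GC across 12561 genes with a Spearman rho of 0.388, and of 0.229 without combined replicate 3. After the GC and length correction 303 of the 431 genes were still called with the same sign, of the 424 that had a GC value. Among genes named below, BIRC3, DUSP2, ASCL2, FOXQ1, FOXJ1, SLC7A5, TLR2, PARD6A, KEAP1 and ACSL3 lost their call under it. Genes are not independent replicates, so these values are descriptive.

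Genes of NF-kB feedback and inflammatory cytokines had the lowest median interaction of the 45 lists. Of 38 tested members, 0 were higher, 10 lower (26.3%, against 3.33% of all genes) and 28 not called. The list named 47 genes, and some of those tested passed the filter of a mean of 1 FPKM only through their CW14 libraries. Among these were CSF2, CSF3, CXCL10 and TNF. That selection leans such genes to a negative interaction, so the share is descriptive. The list's median interaction was -1.02, against 0.04 over all genes tested, and it was -0.98 without combined replicate 3 and -1.01 after the GC correction. The median toxin response of the list was -2.0 with bacteria and -0.71 without, and 30 members fell with bacteria and 17 without. Among all genes tested, 17.5% fell with bacteria and 12.9% without. The members called were CSF2, CXCL10, LTB, CXCL3, CSF3, TNF, SOD2, BIRC3, ICAM1 and TNFAIP2.

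CSF2 encodes the growth factor GM-CSF (chromosome 5, 131409483 to 131411863 as deposited, in hg19). It was listed at 0 in all 3 combined libraries, against 8.86, 3.55 and 5.65 FPKM with CW14. OTA libraries had 0.642, 0.523 and 0 FPKM and the 3 control libraries were listed at 0. Only the libraries given bacteria without toxin were above 1 FPKM. The interaction was -3.18 (SE 0.40, limma adjusted p = 0.00738), a size that depends on the 1 FPKM added before taking logs. It stayed called with each library left out in turn. CSF2 passed the filter only through its CW14 libraries, so this p-value and the repeated calls add no support.

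CXCL10, a chemokine that attracts T cells, had 0.907, 1.73 and 0 FPKM in combined libraries, against 24.6, 9.27 and 18.2 FPKM with CW14. It had 0.726, 0.295 and 0.504 FPKM with OTA, against 0.583, 1.60 and 0.427 FPKM in controls. The interaction was -3.04 (SE 0.57, limma adjusted p = 0.0219). As CXCL10 passed the filter only through its CW14 libraries, this p-value is descriptive. The combined libraries lay below every CW14 library, while OTA and control libraries overlapped.

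TNF, the founding cytokine of its family (chromosome 6, 31543342 to 31546112), had 1.24, 1.38 and 0.842 FPKM in combined libraries, against 15.0, 9.76 and 19.1 FPKM with CW14. OTA libraries had 0.827, 0.202 and 0.115 FPKM, against 0.929, 0.755 and 1.02 FPKM in controls. The interaction was -2.33 (SE 0.36, limma adjusted p = 0.0164). TNF too passed the filter only through its CW14 libraries, so this p-value is descriptive. LTB, the lymphotoxin beta gene beside TNF, had an interaction of -2.76, and CSF3, which encodes G-CSF, one of -2.63.

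CXCL3, a neutrophil chemokine, fell with the toxin in both settings. It had 1.61, 2.47 and 0.873 FPKM in combined libraries, against 125, 41.5 and 80.2 FPKM with CW14. OTA libraries had 2.71, 0.630 and 1.08 FPKM, against 8.92, 10.9 and 9.59 FPKM in controls. The toxin response was -4.88 with bacteria and -2.21 without, an interaction of -2.67 (SE 0.54, limma adjusted p = 0.0284). CXCL3 values of both groups given toxin overlapped. BIRC3, an inhibitor of cell death, had toxin responses of -3.55 with bacteria and -1.62 without,. SOD2, the mitochondrial superoxide dismutase, had 24.9, 29.5 and 13.2 FPKM in combined libraries, against 95.9, 39.2 and 111 FPKM with CW14. Its OTA libraries had 28.1, 25.5 and 30.1 FPKM, against 24.3, 21.5 and 21.7 FPKM in controls.

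CXCL8, the interleukin-8 gene, had the lowest estimate of the list but varied more between libraries and did not pass (interaction -3.28, SE 0.90, limma adjusted p = 0.0627). Its values were 7.08, 2.90 and 0.550 FPKM in combined libraries, against 127, 28.7 and 124 FPKM with CW14. CXCL2 (-1.95) and NFKBIA, which holds NF-kB in the cytoplasm (-0.73), were not called either. RCAN1, a regulator of calcineurin, and ARL14, a small GTPase, were highest with CW14 as well. RCAN1 had 20.1, 29.9 and 10.1 FPKM in combined libraries, against 391, 188 and 440.2 FPKM with CW14, and an interaction of -2.06. ARL14 had toxin responses of -3.94 with bacteria and -1.87 without.

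The promoters of these cytokine genes are shown because their bacterial response is known to run through NF-kB. The kappa-B consensus was searched on both strands in the 250 bases before each start in RefSeq (GRCh38.p14). It was found in 4 of the 9 called members with an entry, and in 9.57% of the 27305 promoters of the table. A match is only a description of the letters. Capitals mark the match, and each position is that of its first base before the start.
CXCL10 (-122, chr4:76023585-76023644, minus strand): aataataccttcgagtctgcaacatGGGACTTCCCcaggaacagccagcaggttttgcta
CXCL3 (-79, chr4:74038734-74038793, minus strand): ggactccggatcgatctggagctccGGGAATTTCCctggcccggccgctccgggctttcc
LTB (-86, chr6:31582477-31582536, minus strand): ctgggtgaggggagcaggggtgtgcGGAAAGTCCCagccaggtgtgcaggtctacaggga
BIRC3 (-135, chr11:102317324-102317383, plus strand): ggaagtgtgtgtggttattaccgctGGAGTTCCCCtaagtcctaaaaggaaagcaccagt
CXCL10 held a further match at -177 and BIRC3 at -199, and the CXCL10 and CXCL3 sites read as matches on both strands, offset by 1 base in CXCL3.

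Genes of the hypoxia list had the next lowest median, -0.81, against 0.04 over all genes, and it was -0.75 without combined replicate 3 and -0.78 after the GC correction. Of 27 tested members, 0 were higher, 9 lower (33.3%, against 3.33% called among all genes) and 18 not called. These genes are known targets of hypoxia-inducible factors. Their median toxin response was -0.64 with bacteria and 0.30 without: 15 fell with bacteria and 3 without, while 0 rose with bacteria and 8 without. Among all genes tested, 17.5% fell with bacteria and 12.9% without, while 14.8% rose with bacteria and 4.82% without. INSIG2, which retains the cholesterol sensor in the endoplasmic reticulum (chromosome 2, 118846048 to 118867597), moved in opposite directions. It had 33.0, 34.7 and 23.8 FPKM in combined libraries, against 55.6, 86.1 and 50.1 FPKM with CW14. It had 88.0, 93.6 and 92.8 FPKM with OTA, against 48.5, 44.2 and 40.5 FPKM in controls. It fell by 1.02 with the toxin in the presence of bacteria and rose by 1.03 without them (interaction -2.05, SE 0.28, limma adjusted p = 0.00782). Neither pair of groups overlapped, and the call held with each library left out.

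BNIP3L, a receptor for removal of mitochondria, had 95.5, 96.9 and 92.3 FPKM in combined libraries, against 139, 196 and 129 FPKM with CW14. OTA libraries had 218, 221 and 223 FPKM, against 142, 132 and 119 FPKM in controls. Again neither pair overlapped (interaction -1.42, SE 0.21, limma adjusted p = 0.0132). MXI1, an antagonist of MYC, fell with the toxin in the presence of bacteria by 1.00 and rose by 0.59 without them. CA9, which encodes the membrane carbonic anhydrase IX, had 7.40, 7.49 and 4.26 FPKM in combined libraries, against 15.5, 16.7 and 15.5 FPKM with CW14. With OTA it had 22.7, 28.4 and 24.4 FPKM, against 21.7, 16 and 14.7 FPKM in controls. The other called members were KDM3A, NDRG1, P4HA1, PLOD2 and ERO1L. Among glycolysis genes 2 of 30 were lower (6.67%, against 3.33% called among all genes), HK2 (-1.62) and PFKFB4 (-0.94), and 0 were higher.

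The core of the hypoxia response element, ACGTG, was searched in the same promoter windows on both strands; the longer E-box CACGTG contains it. It was found in 5 of the 7 called hypoxia members with an entry and in 18.7% of all 27305 promoters. The windows of 3 members are shown for the letters around it, with the core in capitals. In these 3 ACGTG lies on the strand opposite to the gene, so the gene's strand, printed here, reads CACGT.
INSIG2 (-95, chr2:118088351-118088405, plus strand): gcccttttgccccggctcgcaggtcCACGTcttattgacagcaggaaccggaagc
CA9 (-18, chr9:35673885-35673927, plus strand): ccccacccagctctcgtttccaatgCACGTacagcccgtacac
P4HA1 (-86, chr10:73096923-73096977, minus strand): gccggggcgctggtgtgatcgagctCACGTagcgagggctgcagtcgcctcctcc

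Mucins and other surface proteins were among the lower genes as well. Of 10 tested genes of the mucin and trefoil list 3 were lower and 0 higher (30% called, against 3.33% of all genes), a share that rests on 3 genes. They were the mucins MUC13 and MUC17, and GALNT3, which encodes an enzyme and not a mucin. The median of the list was -0.53, -0.87 without combined replicate 3 and -0.73 after the GC correction. MUC13, a membrane mucin, had 69.5, 63.3 and 77.0 FPKM in combined libraries, against 251, 209 and 195 FPKM with CW14. OTA libraries had 155, 149.8 and 172 FPKM, against 271, 200.2 and 225 FPKM in controls. It fell with the toxin in both settings, by 1.62 with bacteria and by 0.54 without (interaction -1.09, SE 0.21, limma adjusted p = 0.0219). MUC17, another membrane mucin, had an interaction of -1.86, and GALNT3, which starts mucin-type glycosylation, one of -1.59. Of 29 brush border genes 2 were lower (6.9%, against 3.33% called among all genes), the adhesion molecules CEACAM1 (-1.35) and CEACAM5 (-1.06). CEACAM1 had 51, 55.0 and 46.8 FPKM in combined libraries, against 109.9, 147 and 95.6 FPKM with CW14. It had 141, 134 and 128 FPKM with OTA, against 134, 109 and 113 FPKM in controls. Genes of this family are similar in sequence, so fragments may be shared between them. SLC11A2, an iron importer, had an interaction of -1.60 and CYP1A1, an oxidising enzyme induced through the aryl hydrocarbon receptor, one of -1.46.

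**Figure D3:**
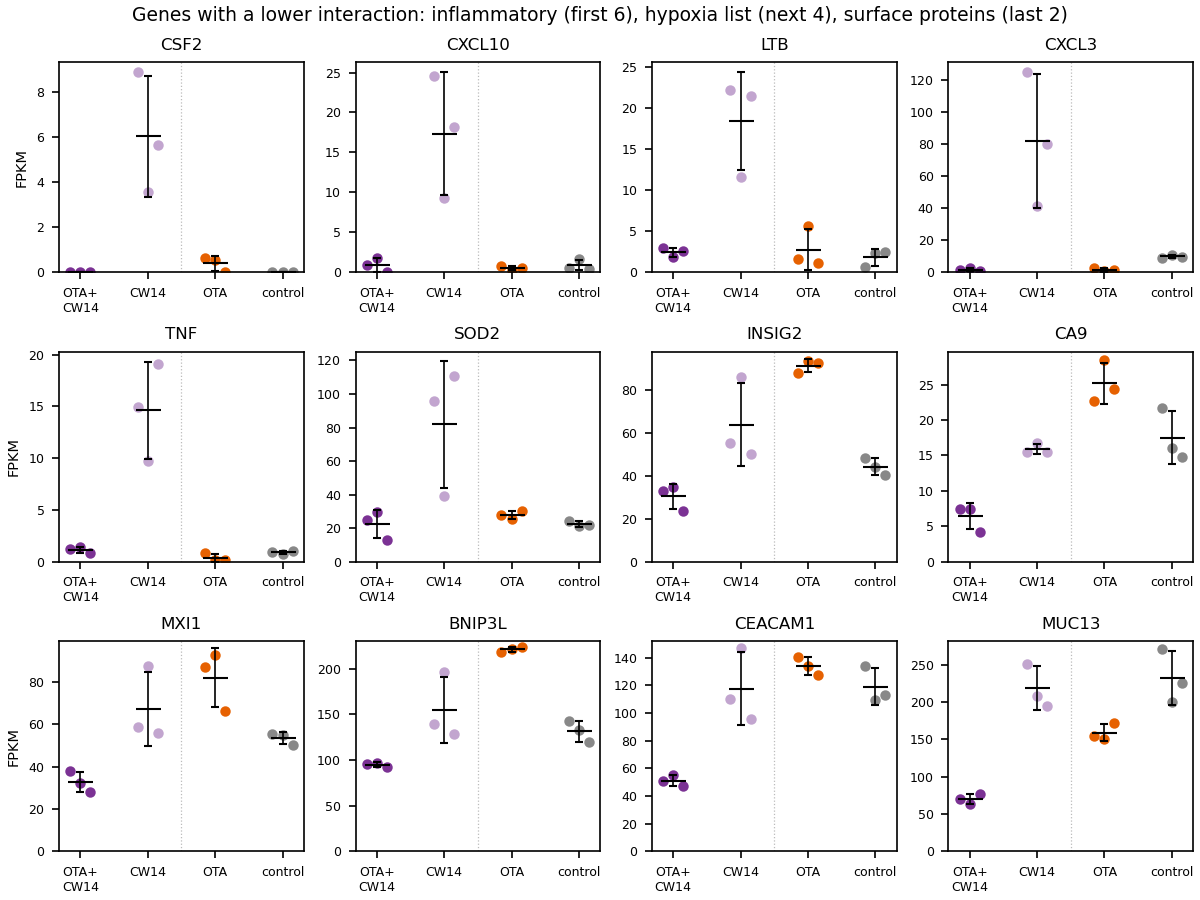
FPKM (vertical axes, from 0) of 12 genes with a negative interaction in each library of the 4 groups; points are libraries, bars the mean and SD of 3. In the first 6 genes every CW14 library was above all libraries of the other groups, while INSIG2 and BNIP3L were lower with toxin in the presence of bacteria and higher with toxin in their absence.

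Most immediate early genes fell with the toxin in both settings. Of 43 tested immediate early and MAPK feedback genes, 42 fell with bacteria and 41 without. Among all genes tested, 17.5% fell with bacteria and 12.9% without. The median toxin response of the list was -2.40 with bacteria and -2.21 without, and their median interaction was -0.24 (-0.15 without combined replicate 3, -0.41 after the GC correction). In the interaction 1 was higher, 4 lower (11.6% called in all, against 3.33% of all genes) and 38 not called. JUN, a subunit of AP-1, had 43.6, 44.2 and 23.3 FPKM in combined libraries, against 457, 365 and 374 FPKM with CW14. OTA libraries had 98.2, 100.5 and 116 FPKM, against 472, 464 and 399 FPKM in controls. It fell by 3.44 with bacteria and by 2.08 without (interaction -1.37, SE 0.30, limma adjusted p = 0.0367). ATF3, a stress-induced transcription factor, fell by 4.13 with bacteria and by 2.93 without. DUSP8 and MAFK were lower as well. DUSP2, a MAP kinase phosphatase, was the higher member (interaction 1.22). EGR1 (0.36), FOS (-0.26) and DUSP1 (-0.71) were not called.

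On the higher side, Wnt and crypt genes had a median interaction of 0.57 (0.65 without combined replicate 3, 0.50 after the GC correction). Of 27 tested members 4 were higher, 1 lower (LRP5, a Wnt co-receptor, -0.87) and 22 not called. In all 18.5% were called, against 3.33% of all genes. DKK1, a secreted Wnt antagonist (chromosome 10, 54074039 to 54077417), had 234, 198 and 131 FPKM in combined libraries, against 114, 102 and 162 FPKM with CW14. OTA libraries had 63.0, 88.6 and 68.9 FPKM, against 246, 270.0 and 465 FPKM in controls. It fell by 2.09 with the toxin alone, while its response with bacteria, 0.56, was not called (interaction 2.65, SE 0.39, limma adjusted p = 0.0132). SP5, a zinc finger factor induced by Wnt, had 47.0, 38.8 and 36.5 FPKM in combined libraries, against 20.02, 14.9 and 20.1 FPKM with CW14. It had 15.7, 16.1 and 14.7 FPKM with OTA, against 25.5, 34.4 and 35.1 FPKM in controls. SP5 rose by 1.12 with bacteria and fell by 0.97 without (interaction 2.09, SE 0.24, limma adjusted p = 0.00651), and neither pair of groups overlapped. Both calls held with each library left out.

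ASCL2, a transcription factor of crypt stem cells, had 41.0, 35.4 and 47.7 FPKM in combined libraries, against 16.5, 17.6 and 18.1 FPKM with CW14. OTA libraries had 20.3, 14.4 and 19.99 FPKM, against 17.0, 22.3 and 21.8 FPKM in controls. The combined libraries stood above all 9 others (interaction 1.35). RNF43, a ligase that removes Wnt receptors, fell by 1.24 with the toxin alone and had a response of -0.25 with bacteria.

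Of 19 tested genes of BMP and TGF-beta feedback 3 were higher (15.8%, against 3.33% called among all genes), 0 lower and 16 not called. BAMBI, a pseudoreceptor that blocks TGF-beta signals, had 83.2, 53.3 and 51.1 FPKM in combined libraries, against 49.1, 50.6 and 65.0 FPKM with CW14. It had 24.2, 26.3 and 19.2 FPKM with OTA, against 63.3, 77.0 and 102 FPKM in controls (interaction 1.90, SE 0.31, limma adjusted p = 0.0164). ID1, an inhibitor of basic helix-loop-helix factors, fell by 1.25 with the toxin in the presence of bacteria and by 2.92 in their absence. It had 43.8, 35.5 and 46.9 FPKM in combined libraries, against 104, 145 and 68.3 FPKM with CW14. OTA libraries had 37.4, 43.6 and 41.0 FPKM, against 327, 327 and 292 FPKM in controls. ID1 values of both groups given toxin overlapped, while its CW14 libraries lay below every control library. BMP4, a secreted ligand of the pathway, was the remaining higher member (interaction 1.30).

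FOXA2, a forkhead factor of gut epithelium, had 35.9, 33.7 and 56.0 FPKM in combined libraries, against 40.3, 50.3 and 42.2 FPKM with CW14. OTA libraries had 18.8, 19.3 and 15.9 FPKM, against 61.1, 58.0 and 60.2 FPKM in controls. It fell by 1.68 with the toxin alone, and its response of -0.11 with bacteria was not called (interaction 1.58, SE 0.25, limma adjusted p = 0.0164). FOXA3 followed, with responses of 0.23 with bacteria and -1.12 without. These were the 2 higher members of 30 tested enterocyte transcription factors and nuclear receptors, and 0 were lower. In that list 6.67% were called, against 3.33% of all genes. SOX2, a stem cell factor whose gene lies within the noncoding gene SOX2-OT, had the largest interaction of the higher genes named by rank (2.71, SE 0.45). It had 11.7, 7.52 and 10.0 FPKM in combined libraries, against 2.54, 2.50 and 4.15 FPKM with CW14. It had 1.73, 1.28 and 1.16 FPKM with OTA, against 2.36, 5.59 and 8.13 FPKM in controls. FOXQ1 fell by 2.41 with the toxin alone and FOXJ1, a factor for cilia, rose by 1.39 with bacteria.

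Ribosome biogenesis factors had the highest median interaction of the 45 lists, 0.71 (0.52 without combined replicate 3, 0.66 after the GC correction). Of 62 tested members 10 were higher (16.1%, against 3.33% called among all genes), 0 lower and 52 not called. Their median toxin response was 0.34 with bacteria and -0.24 without. NOP2, a nucleolar RNA methyltransferase, had 33.4, 30.7 and 56.1 FPKM in combined libraries, against 22.2, 22.6 and 21.7 FPKM with CW14. It had 17.3, 14.8 and 13.9 FPKM with OTA, against 23.0, 28.3 and 32.8 FPKM in controls (interaction 1.60, SE 0.29, limma adjusted p = 0.0214). The highest of its values was that of combined replicate 3, and the same held for RRP1, POLR1C and BYSL within the combined group. POLR1C, a subunit of RNA polymerases I and III, had an interaction of 1.47. PUS1, which makes pseudouridine in tRNA, rose by 1.06 with bacteria and fell by 1.01 without (interaction 2.07, SE 0.25, limma adjusted p = 0.00651). CD3EAP, a subunit of RNA polymerase I, had an interaction of 1.98. Of the cytosolic ribosomal protein genes 0 of 81 were higher and 2 lower (2.47% called, against 3.33% of all genes). Their median was -0.27 (-0.55 and 28 lower without combined replicate 3). The 2 lower genes were RPL3 (-0.91) and RPL9 (-1.65), whose related pseudogenes can share fragments with them. Mitochondrial ribosomal proteins had 1 higher of 75 (1.33%), MRPS18C (1.51), and a median of 0.33 that became 0.10 without combined replicate 3.

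DNA replication genes had a median interaction of 0.61 (0.49 without combined replicate 3, 0.57 after the GC correction). Of 38 tested members 7 were higher and 0 lower (18.4% called, against 3.33% of all genes). The 7 were MCM3, MCM4, CDC6, GINS3, POLD3, FEN1 and TK1. MCM3, part of the replicative helicase, had 33.7, 34.4 and 55.7 FPKM in combined libraries, against 16.5, 15.7 and 16.3 FPKM with CW14. OTA libraries had 18.9, 19.9 and 18.7 FPKM, against 15.7, 20.3 and 23.1 FPKM in controls. The combined libraries lay above all the others (interaction 1.28, SE 0.27, limma adjusted p = 0.0319). GINS3, another part of that helicase, rose by 0.73 with bacteria and fell by 0.83 without. CDC6, which loads the helicase, fell by 1.13 with the toxin alone and had a response of 0.13 with bacteria. Of the mitosis genes 0 of 39 were called, where few calls would fall at the 3.33% of all genes, and their median was 0.01. H2AFX, a histone variant that marks DNA breaks when phosphorylated, had 213, 199 and 251 FPKM in combined libraries, against 142, 155 and 119.6 FPKM with CW14. It had 114, 116 and 107 FPKM with OTA, against 228, 227 and 213 FPKM in controls. The interaction of 1.65 (SE 0.18, limma adjusted p = 0.00651) held with each library left out, and neither pair of groups overlapped. Replication-dependent histones had 0 called of 56, where few calls would fall at the 3.33% of all genes.

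**Figure D4:**
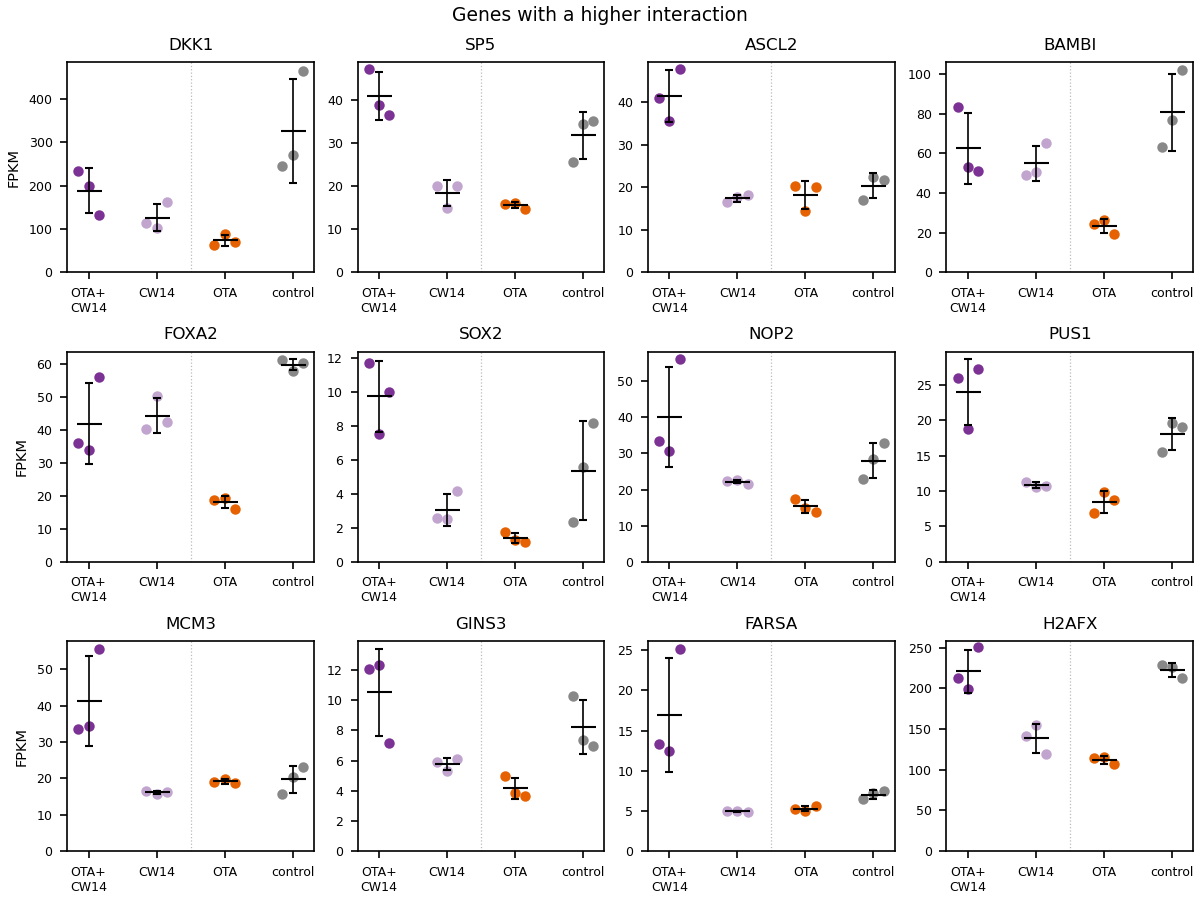
FPKM (vertical axes, from 0) of 12 genes with a positive interaction in each library of the 4 groups; points are libraries, bars the mean and SD of 3. SP5, PUS1 and H2AFX were higher with toxin in the presence of bacteria and lower with toxin in their absence, while MCM3, ASCL2 and FARSA were high in combined libraries.

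FARSA encodes a subunit of phenylalanyl-tRNA synthetase, the enzyme that ochratoxin A is known to interfere with (chromosome 19, 13033282 to 13044558). It had 13.4, 12.4 and 25.1 FPKM in combined libraries, against 5.00, 5.01 and 4.82 FPKM with CW14. OTA libraries had 5.28, 5.00 and 5.59 FPKM, against 6.46, 7.21 and 7.49 FPKM in controls. It rose by 1.53 with the toxin in the presence of bacteria, while its response of -0.36 without them was not called (interaction 1.88, SE 0.30, limma adjusted p = 0.0164). All 3 combined libraries lay above all the others, with replicate 3 the highest, and the interaction was 1.58 without that library. WARS, the tryptophan enzyme, was the other called member of 36 aminoacyl-tRNA synthetases (1.00), and 0 were lower. In that list 5.56% were called, against 3.33% of all genes. SLC7A5, an importer of large neutral amino acids such as phenylalanine, fell by 1.49 with the toxin alone and had a response of -0.02 with bacteria.

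Among stress genes, 7.14% of the ATF4 list, 6.9% of the heat shock list and 6.67% of the p53 list were called, against 3.33% of all genes. Of 26 genes of endoplasmic reticulum chaperones and the unfolded protein response 3 were lower (11.5%) and 0 higher: SEC24D, a coat protein of transport vesicles (-0.88), and the oxidases ERO1L (-1.22) and ERO1LB (-1.07). ERO1LB was not called after the GC correction. NUPR1, a stress-induced chromatin regulator, had 4.26, 4.07 and 7.65 FPKM in combined libraries, against 0.341, 0 and 1.07 FPKM with CW14. It had 0.190, 2.32 and 0.528 FPKM with OTA, against 0.915, 1.55 and 0.929 FPKM in controls. NUPR1 passed the filter of a mean of 1 FPKM only through its combined libraries, so its call and the 7.14% of the ATF4 list are descriptive. It and SLC7A5 were the 2 higher members of 28 genes of ATF4 and the integrated stress response, and DDIT4 (-0.78) was not called. POMC, the precursor of corticotropin, had a similar pattern at 4.41, 5.33 and 8.76 FPKM in combined libraries, against 0.423, 0.244 and 1.11 FPKM with CW14. The 29 heat shock proteins had a median interaction of 0.45 (0.26 after the GC correction) and 2 higher members. DNAJA1 fell by 0.96 with the toxin alone and had a response of 0.01 with bacteria. HSPB1 had 219, 162 and 426 FPKM in combined libraries, against 109, 103 and 109.7 FPKM with CW14, and an interaction of 1.66, or 1.27 without combined replicate 3. HSPA1A (0.47), whose near-identical copy HSPA1B can share its fragments, and DNAJB1 (0.49) were not called. Of 30 p53 targets 2 were lower, the death receptor gene TNFRSF10B (-1.21) and GADD45A (-1.13), while GDF15 (-0.01) and MDM2 (-0.22) were not called.

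Of 39 tight junction and polarity genes 1 was higher, 2 lower and 36 not called (7.69% called, against 3.33% of all genes). CLDN4, a claudin whose deposited locus is also that of CLDN3, had 398, 378 and 316 FPKM in combined libraries, against 2091, 1739.8 and 2038 FPKM with CW14. OTA libraries had 408, 474 and 353 FPKM, against 1839, 1726 and 1745 FPKM in controls. It fell by 2.43 with bacteria and by 2.11 without, and the interaction of -0.31 (SE 0.20, limma adjusted p = 0.365) did not pass. The scaffold gene TJP1 had an interaction of -0.07 (SE 0.29) and OCLN, which encodes occludin, one of -0.33 (SE 0.20), with falls in both settings for each. CLDN1 (-1.28, SE 0.36), CLDN2 (0.16), CLDN3 (0.33), F11R (-0.18), CDH1 (-0.50) and MYLK (-0.53) were not called. Without combined replicate 3, where 1595 genes were called, CLDN1 (-0.90, limma adjusted p = 0.0128) and CDH1 (-0.38, limma adjusted p = 0.0359) passed. CLDN2, CLDN3, F11R and MYLK did not. CLDN1 also passed after the GC correction (-1.11, limma adjusted p = 0.0420). The claudin gene CLDN16 was lower (-1.56) and the polarity gene PARD6A higher (1.06), both under 9 FPKM in every library. A missed threshold does not show that the responses were alike.

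Some lists held no called member, but at the 3.33% of all genes few calls would fall in lists of their size. They were interferon response (28 tested), EGF family (11), metallothioneins and zinc (10), cholesterol synthesis (31), circadian clock (20), nuclear-encoded respiratory chain (75), proteasome subunits (41) and autophagy and lysosome (36). Mitosis (39), replication-dependent histones (56) and markers of other cell types (5) held none either. PCK1, a gluconeogenesis enzyme, had 1.46, 1.97 and 3.47 FPKM in combined libraries, against 133, 89.9 and 79.0 FPKM with CW14. It had 8.18, 12.2 and 8.29 FPKM with OTA, against 173, 129 and 89.6 FPKM in controls. Its interaction of -1.34 (SE 0.41) was not called, while without combined replicate 3 it was -1.58 and called (limma adjusted p = 0.0243). ABCC2, an efflux pump, had an interaction of -0.41. In the bacterial sensing list the receptor gene TLR2 (-0.91) and RIPK2 (-1.12), a kinase downstream of NOD receptors, were lower of 15 tested (13.3%).

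**Figure D5:**
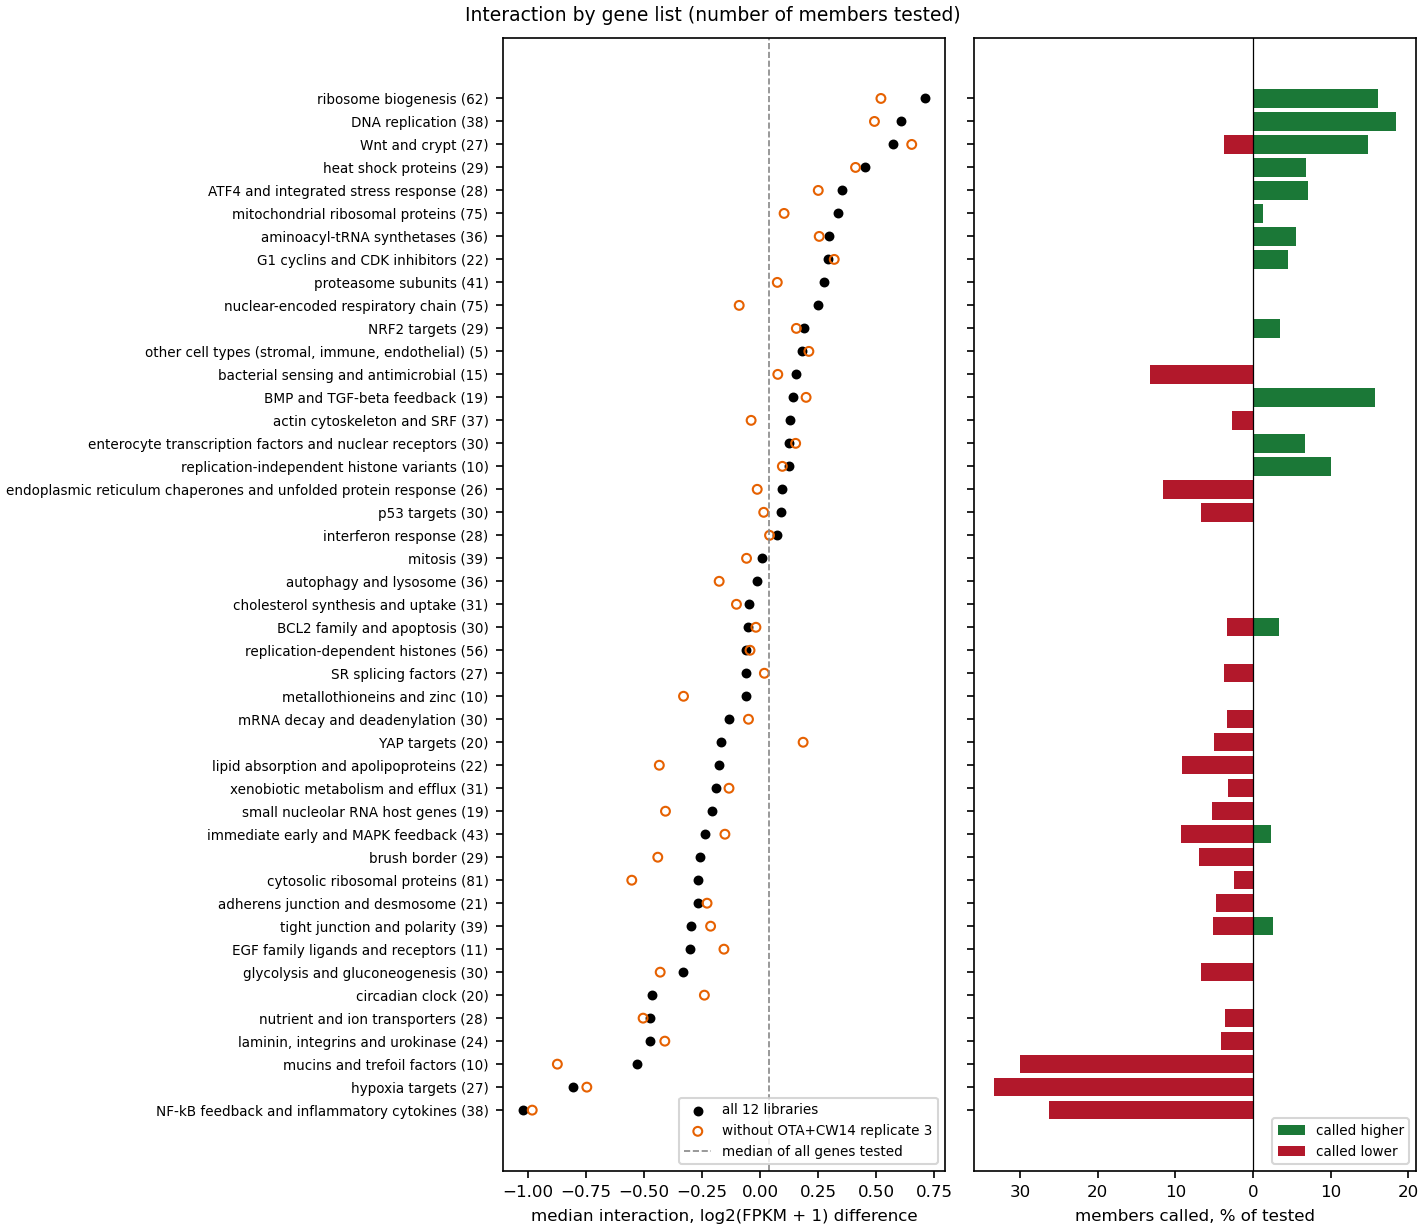
Median interaction of each gene list on the log2(FPKM + 1) scale (left, filled for all 12 libraries, open without combined replicate 3) and the percent of tested members called higher or lower (right), with the number tested in brackets and the median of all genes as a dashed line. The lowest medians were those of the inflammatory (-1.02) and hypoxia (-0.81) lists and the highest that of ribosome biogenesis (0.71).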

How the data were processed

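The authors deposited FPKM per gene for each of 12 RNA-seq libraries. The submitters' processing notes name build hg19 and, in no stated role or order, Cufflinks 2.2.1 with Cuffnorm and Cuffdiff, TopHat2 2.0.13 and cutadapt 1.10. The scaling between libraries is not stated there, nor whether the kit marks strand. Absolute depth is unknown. Relative depth, from the commonest ratio of values under 0.3 FPKM against control replicate 1, was 0.470 to 0.669 in combined, 0.774 to 0.889 in CW14, 0.655 to 1.60 in OTA and 0.908 to 1.58 in control libraries.

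The 12928 of 26125 genes that averaged 1 FPKM or more were analysed as log2(FPKM + 1) in limma 3.58.1 (R 4.3.3). The model had a mean per group, and the prior variance followed expression. Tests were two-sided, with 8 residual degrees of freedom and about 4.0 more from the prior. Genes with 0 in a library are described as listed at 0. The steps were tested on simulated data.

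Named genes were the 12 highest and 12 lowest interactions among genes called with and without combined replicate 3 and at 5 FPKM or more in a group, up to 4 called members per list, and a fixed set of 24. ICAM1, TNFAIP2, KDM3A, NDRG1, P4HA1, PLOD2, MAFK, LRP5, MCM4, POLD3 and FEN1 were named after their values were seen, to complete lists. Some list members are not reported here. Members and lists were chosen with earlier results of these data known. Transcript GC content and length came from GENCODE v29, and promoters from RefSeq.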

Additional observations from a re-analysis of the deposited data

Results flagged for a closer look

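The interaction itself is a test of a difference between groups, so its counts stand here because the toxin response differed between cells with and without bacteria: 431 genes in all, 239 higher and 192 lower. Named genes are added where the toxin response was called in opposite directions with and without bacteria. On the higher side, rising with bacteria and falling without, these were SOX2 (interaction 2.71), SP5 (2.09), PUS1 (2.07), ZNHIT2 (1.96), H2AFX (1.65), NOP2 (1.60), GINS3 (1.56), WARS (1.00) and KEAP1, the sensor that holds NRF2 in check (0.90). On the lower side, falling with bacteria and rising without, these were INSIG2 (-2.05), RPL9 (-1.65), MXI1 (-1.59), BNIP3L (-1.42), ERO1L, an oxidase of the endoplasmic reticulum (-1.22), and ACSL3, which activates fatty acids (-0.63). After the GC correction the response of ACSL3 with bacteria turned to 0.16 and its interaction of -0.23 was not called (limma adjusted p = 0.574). Single libraries within a group of 3 were not tested against the others gene by gene.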

How the results depend on the processing

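The interaction count of 431 (239 higher, 192 lower) became 235 (135, 100) with no filter on low values, 5124 (2649, 2475) with array weights, whose estimate stopped before convergence, and 286 (124 lower) with the replicate block. A filter of 5 FPKM gave 289 lower. Chosen after seeing the data, the GC and length correction gave 682 (412 lower), 306 lower with the replicate block added, and 1580 (690, 890) without combined replicate 3. Leaving out 1 library gave 17 to 1595 calls (11 to 782 higher, 6 to 813 lower). Of 86 named genes called, CSF2, DKK1, H2AFX, INSIG2, PUS1 and SP5 kept their call in every alternative that tested them. None of the 86 changed sign. For CSF2, which passed the filter only through its CW14 libraries, the kept call adds no support. The block lost 31 of the 86 calls. Of 18 same-numbered pairs, 1 had residuals correlated above 0.1, while differently numbered pairs reached up to 0.191. Whether replicate numbers pair libraries is not stated. These correlations cannot decide it, because the residuals of the 3 libraries of a group sum to 0. The cause of these changes was not tested.

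Toxin response calls with bacteria (4179; 1919 higher, 2260 lower) became 7991 (3978, 4013) with array weights and 1521 (504, 1017) with only the compared groups. They ran from 2780 to 5297 with 1 library left out (1141 to 2566, 1639 to 2731). Without bacteria (2288; 623, 1665), array weights gave 5864 (2781, 3083) and the compared groups alone 4621 (2093, 2528). Higher calls were 1153 after median-centring, 1016 with upper-quartile scaling, 976 after quantile normalization, 1165 after GC correction and 994 with the replicate block added to it. GC correction without combined replicate 3 gave 4490 (2089 higher). With 1 library left out the count ran from 1299 to 4364 (208 to 1903, 1091 to 2461). The toxin response of ACSL3 with bacteria reversed to 0.16 after GC correction, with and without the replicate block.

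The median standard error of an interaction over all tested genes was 0.30; how depth limits low genes was not tested.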
